A study of Mus musculus with 24 samples.

Results

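The comparison described here sets the livers of 6 male C57BL6J mice given a 45% high-fat diet (HF) against those of 6 male C57BL6J mice kept on the low-fat diet (LF). It was chosen by sample label: the 12 arrays of these mice whose values were computed together, 12 of the 24 deposited columns, with every probe set that the platform annotation ties to a single gene symbol, 34958 of 45101. The mice were all acclimated on the low-fat diet, ate their assigned diet for 4 weeks without restriction and were fasted for 16 h before a piece of liver was frozen, so both groups are fasted livers. Each mouse gave 1 Affymetrix 3' expression array, and the labels name no transgene, drug or pooling. The study made this comparison to measure the effect of fat loading; its other arm, a plant supplement in the high-fat diet, is not analysed here.

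A hepatocyte makes cholesterol from acetyl-CoA in a long chain of enzymes that are switched on together by the transcription factor SREBP2, which is released from the endoplasmic reticulum when sterols there run low and is held back by the INSIG proteins when they do not. The fasted liver also takes up and oxidises fatty acids, packs triglyceride into droplets and lipoproteins, and makes glucose. Dietary fat and cholesterol reach all of these pathways, and the liver's detoxifying cytochromes P450, of which CYP3A11 is a major mouse form, act on sterols, bile acids and foreign compounds.

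The deposited values ran from 5.42 to 15.02 and hardly differed between arrays, with a median pooled SD of 4.20e-06 within groups and correlations of at least 0.99998 between mice, so that a difference of values is not a fold change. Sizes are therefore given as standardized differences: the HF mean minus the LF mean over the SD pooled within the groups, after Hedges' correction for small samples, with a 95% interval. A mouse's position is its distance from the LF mean in the same SDs. A gene was represented by its brightest probe set and was said to have risen or fallen where limma's adjusted p over all 34958 probe sets was below 0.05. All 12 measured hepatocyte markers had bright probe sets, with mean values of 12.1 to 14.9, and 0 of them passed limma's test (1 at an unadjusted p below 0.05). In whole liver, fewer cells of a type and less RNA per cell cannot be told apart.

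Of the 34958 probe sets, 325 (0.93%) passed the test, 129 of them higher in HF (0.369%) and 196 lower (0.561%). Of 18194 genes, 210 (1.15%) passed the test, 79 of them higher in HF (0.434%) and 131 lower (0.72%). The highest LF mouse lay below the lowest HF mouse, or the reverse, in 397 genes (2.18%). A narrower group of 137 genes (0.753%) passed the test, had groups that did not overlap and differed by more than 3.36e-05, the gap between the groups' column medians. Of these, 55 were higher in HF (0.302%) and 82 lower (0.451%). The gap rests on only 3 different probe sets at the middle of the columns, where neighbouring values are a median of 3.96e-05 apart. The median difference over all probe sets is -3.33e-09. The gap is thus used as a cutoff of size and does not measure an offset between the groups. Centring on column medians moves HF against LF by this gap, which is well above the median pooled SD. Where a sign is said below to turn under that centring, the turn is no test of direction. Limits of quantile normalisation are given with its counts further below. The leading names among the rises were enzymes of sterol synthesis, and those among the falls were more mixed. The median standardized difference over all probe sets was -0.0015, and 50.7% of genes had the higher mean in HF. Of all genes, 2746 (15.1%) had an unadjusted p below 0.05, the share against which such counts of list members are to be read.

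**Figure D1:**
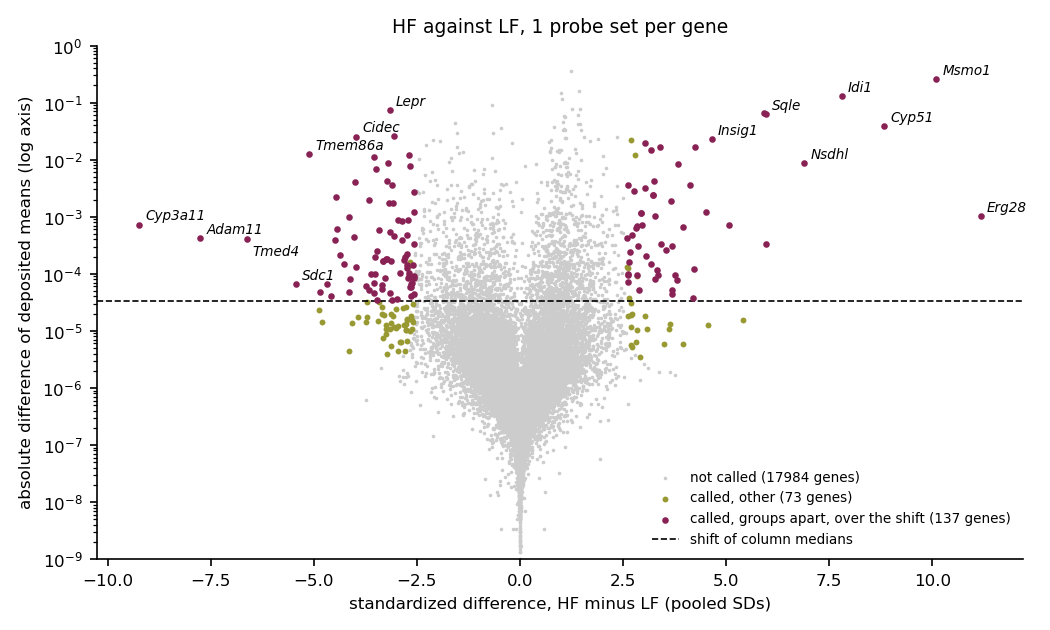
Each point is 1 gene, with the standardized difference (HF minus LF, in pooled within-group SDs) on the horizontal axis and the absolute difference of the deposited group means on a logarithmic vertical axis; the dashed line is the gap of 3.36e-05 between column medians, and genes with equal or nearly equal means fall below the axis. The 137 genes in dark purple passed limma's test, had groups that did not overlap and lay above the line, with Erg28 farthest to the right at 11.2 and Cyp3a11 farthest to the left at -9.24.

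Genes of cholesterol synthesis were higher in the HF livers almost without exception. Of 18 measured enzymes, 16 rose, 0 fell and 2 did not pass the test, a share of 88.9% against 1.15% of all genes. Their median standardized difference was 3.50, against -0.0015 over all probe sets, and was 2.94 after centring on column medians. After quantile normalisation it was 2.28 over 16 genes. That median leaves out Sc5d and Ebp, which had no difference left, and would be lower with both counted as 0. Groups did not overlap in 15 of the 18, against 2.18% of all genes. All 15 were among the 16 that rose, so this count is not separate evidence. Counted over all 39 probe sets of the 18 genes, 37 had the higher mean in HF, 29 rose and 0 fell. The list had been drawn up with earlier results of these arrays known, so that its count is not independent evidence of its direction.

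The stretches just upstream of the start sites of 6 of these genes are shown because the same short motif, the CCAAT box, recurs in them. A CCAAT box is the binding sequence of the factor NF-Y, which is known to work beside SREBP2 on sterol genes. The sequences are from RefSeq (GRCm38.p6), run 5' to 3' on the gene's strand and cover the 120 bases before the start site, except that of Hmgcs1, which covers bases 150 to 31 before it. Capitals mark CCAAT on either strand (CCAAT or ATTGG) and, in Hmgcs1 only, TCACCCCAC, a form of the sterol element searched as TCACNCCAC.
Hmgcs1 (chr13:119690201-119690320, plus strand): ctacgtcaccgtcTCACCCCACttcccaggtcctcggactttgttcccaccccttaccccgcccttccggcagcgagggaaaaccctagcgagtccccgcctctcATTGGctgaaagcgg
Mvk (chr5:114444149-114444268, plus strand): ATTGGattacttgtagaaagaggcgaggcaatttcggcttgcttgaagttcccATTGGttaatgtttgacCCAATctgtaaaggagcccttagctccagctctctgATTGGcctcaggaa
Idi1 (chr13:8885486-8885605, plus strand): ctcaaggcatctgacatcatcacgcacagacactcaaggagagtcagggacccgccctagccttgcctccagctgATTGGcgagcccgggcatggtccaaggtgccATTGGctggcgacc
Cyp51 (chr5:4104698-4104817, minus strand): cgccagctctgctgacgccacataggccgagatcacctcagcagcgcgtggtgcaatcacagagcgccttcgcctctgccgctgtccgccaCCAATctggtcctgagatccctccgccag
Msmo1 (chr8:64733579-64733698, minus strand): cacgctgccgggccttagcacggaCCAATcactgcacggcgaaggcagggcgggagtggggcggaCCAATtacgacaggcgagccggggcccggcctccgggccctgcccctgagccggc
Nsdhl (chrX:72918401-72918520, plus strand): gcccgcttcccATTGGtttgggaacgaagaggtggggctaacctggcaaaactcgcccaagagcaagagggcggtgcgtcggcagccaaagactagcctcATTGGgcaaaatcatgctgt
In windows of 300 bases, from 250 before to 50 after the start, CCAAT on either strand was found in all 15 cholesterol synthesis genes that had a window, against 41.1% of 27025 genes. Fdps, Fdft1 and Sqle had no entry. The other genes that rose without overlap of the groups held it in 21 of 34 (61.8%), and those that fell in 37 of 74 (50%). TCACNCCAC was found in 1 of the 15 genes, Hmgcs1, against 1.44% of all genes, and the E-box CACGTG in 3 of the 15, against 8.09%. Other forms of the sterol element were not searched. A match is a description of these letters and not evidence of binding.

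The chain begins with Hmgcs1, which makes HMG-CoA and whose upstream sequence is the one that matched TCACNCCAC. Its brightest probe set lay at -0.75, -0.24 and 1.19 pooled SDs (lowest, median and highest mouse) in LF and at 1.06, 3.18 and 4.33 in HF, a rise of 2.79 (95% interval 1.17 to 4.36; adjusted p = 0.0369). The lowest HF mouse lay just inside the LF range. All 4 other probe sets of Hmgcs1 were also higher in HF, and 3 of them passed the test. The next steps turn mevalonate into the isoprene units from which sterols are built: Mvk rose by 3.31, Pmvk by 3.05 and Mvd by 3.69, without overlap of the groups, although after quantile normalisation Mvk stood at -1.28 and Pmvk (1.16) and Mvd (0.66) did not pass. With column medians centred, Mvd stood at 1.38. Idi1, the isomerase of those units, lay at -1.49, -0.36 and 1.74 in LF and at 7.31, 8.68 and 9.51 in HF. Its standardized difference was 7.80 (4.27 to 11.3; adjusted p = 5.97e-05), and its other probe set gave 9.16.

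Fdps and Fdft1, which join the units into farnesyl diphosphate and squalene, rose by 5.91 and 3.85. For Fdps the other probe set did not pass the test and had the opposite sign (-1.03), and for Fdft1 1 of 3 others rose as well (4.58) while another stood at -0.67. Sqle, the epoxidase that commits squalene to sterols, lay between -0.54 and 0.29 in LF and between 4.74 and 7.92 in HF, with medians of 0.14 and 6.86. All 6 HF mice lay far outside the LF range, which was narrow for this gene. Lss, the cyclase that closes the sterol rings, did not pass the test on its brightest probe set (0.77, -0.35 to 1.85; adjusted p = 0.567). Both of its other probe sets rose without overlap of the groups, by 9.997 (5.56 to 14.4; adjusted p = 1.3e-05) and 4.21.

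Genes that remove the methyl groups from the first sterol rose by 2.61 to 10.1. Cyp51, the 14-demethylase, lay at -1.5, -0.30 and 1.82 in LF and at 8.49, 9.77 and 10.5 in HF, a rise of 8.84 (4.88 to 12.8; adjusted p = 2.33e-05). Both other probe sets of Cyp51 rose as well, by 8.17 and 3.70. Msmo1, the C-4 methyl oxidase, rose by 10.1 (5.61 to 14.6; adjusted p = 1.3e-05), with LF mice between -1.06 and 1.06 and HF mice between 9.05 and 12.3. Nsdhl, which removes the oxidised carbon in the next step, lay at -1.02, -0.02 and 1.65 in LF and at 6.02, 7.38 and 9.20 in HF, a rise of 6.90 (3.73 to 10.04; adjusted p = 0.000177). Hsd17b7, the reductase that ends the cycle, rose by 2.61 (adjusted p = 0.0463), and 2 of its 3 other probe sets rose too. The groups did not overlap in any of these 4 genes.

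Erg28, the counterpart of a yeast protein that holds these C-4 demethylation enzymes together in the endoplasmic reticulum, had the highest standardized difference of all 18194 genes. Its LF mice lay at -2.04, 0.46 and 1.46 and its HF mice at 11.6, 12.1 and 12.8 pooled SDs, a rise of 11.2 (6.24 to 16.1; adjusted p = 1.22e-05). The deposited means differed by 0.00101, far less than those of Msmo1 (0.26). Erg28 has 1 probe set, and after quantile normalisation its standardized difference was 0.51 (adjusted p = 0.526).

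Enzymes that reshape the double bonds of the ring rose by 2.61 to 3.96, except Ebp. Tm7sf2, a reductase that acts after Cyp51, rose by 3.27 and Lbr, which encodes a nuclear envelope protein with the same sterol reductase activity, by 2.61, or -2.29 after quantile normalisation. Sc5d, the desaturase, rose by 3.96 (1.93 to 5.94; adjusted p = 0.00682), and Dhcr7, which makes cholesterol in the final step, by 2.84 (adjusted p = 0.0338). Ebp, the isomerase that acts before Sc5d, did not pass the test (1.01, -0.14 to 2.12; adjusted p = 0.52). In 10 of the 16 enzymes the call held in each of the 12 fits that left out 1 mouse. Tm7sf2 lost it without LF mouse 5 (adjusted p = 0.0507) and Pmvk without HF mouse 1 or LF mouse 1, 3 or 8 (up to 0.0635). Hmgcs1 kept its call only without HF mouse 4 or LF mouse 2 (0.0867 at most otherwise), Dhcr7 only without HF mouse 2, 3 or 8 (0.0818), Lbr only without HF mouse 4 (0.106) and Hsd17b7 in no fit (0.0935).

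**Figure D2:**
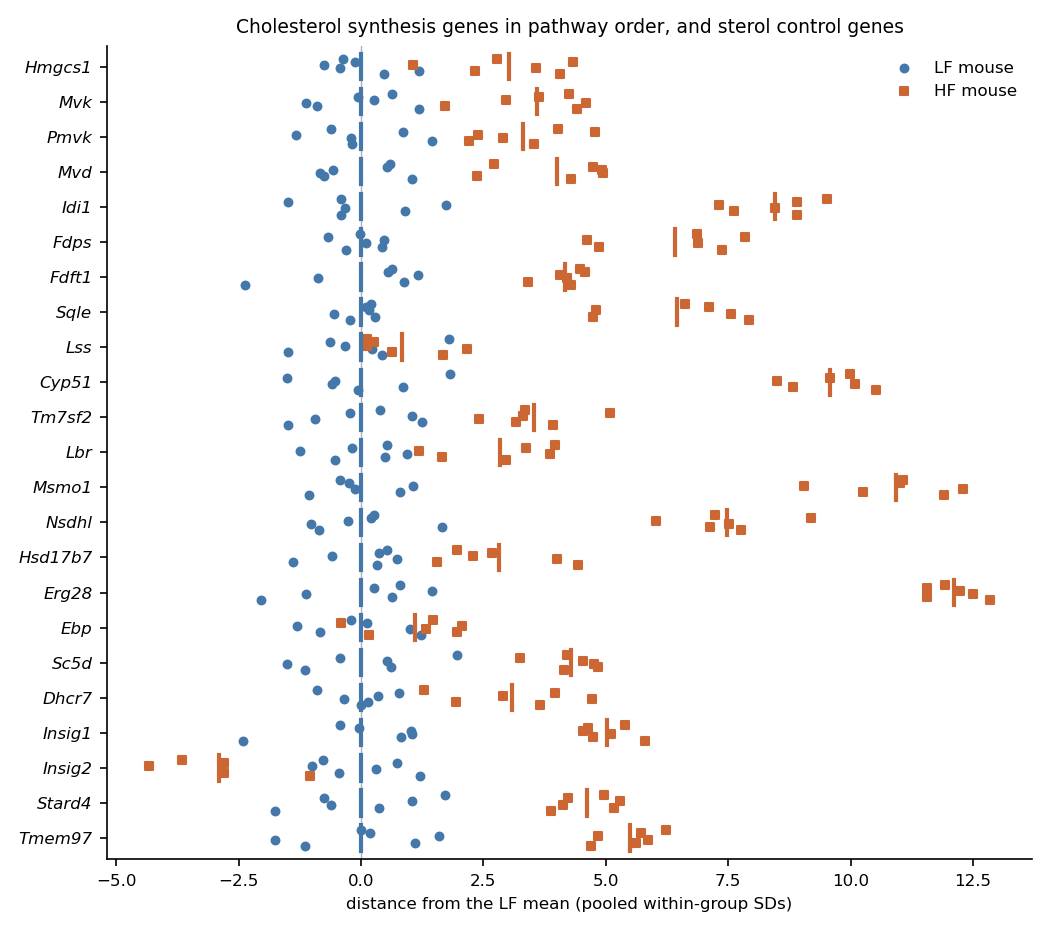
Positions of the 6 LF mice (blue circles) and 6 HF mice (orange squares) for genes of cholesterol synthesis from top to bottom in pathway order, then genes of sterol control and transport, in pooled within-group SDs from the LF mean; vertical ticks are group means. HF mice lie to the right of all LF mice in most genes, from 9.05 to 12.3 for Msmo1, overlap them in Lss, Ebp and Hmgcs1, and lie to the left in Insig2.

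The genes that control SREBP and move cholesterol did not shift as one block: of 22 measured, 5 rose, 2 fell and 15 did not pass (31.8% called). Their median of 0.20 turned to -1.70 with column medians centred and to -0.64 after quantile normalisation (over the 19 genes with a finite value). Insig1, which holds SREBP in the endoplasmic reticulum and is itself an SREBP target, rose by 4.65 (2.36 to 6.88; adjusted p = 0.00304), with LF mice between -2.41 and 1.04 and HF mice between 4.54 and 5.81. Its paralogue Insig2 fell by 2.68 (interval -4.21 to -1.09; adjusted p = 0.0416), with LF mice at -1.01, -0.08 and 1.21 and HF mice at -4.33, -2.80 and -1.04. The groups did not overlap, although the highest HF mouse came within a fraction of an SD of the lowest LF mouse. Both other probe sets of Insig2 also fell, at -3.0 and -3.08. The call for the brightest one held only without HF mouse 1 or LF mouse 4, with an adjusted p of up to 0.0998 otherwise.

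Tmem97, an endoplasmic reticulum protein that binds the cholesterol exporter NPC1, lay at -1.76, 0.10 and 1.6 in LF and at 4.71, 5.67 and 6.23 in HF, a rise of 5.07 (2.63 to 7.48; adjusted p = 0.00164). Stard4, a soluble sterol carrier, rose by 4.25, and its other 2 probe sets rose by 5.30 and 5.10. Srebf2, the gene of SREBP2 itself, rose by 2.85 (adjusted p = 0.0359), but with a difference of means of 1.04e-05, below the gap between column medians, and it turned to -1.33 with column medians centred and to -2.82 after quantile normalisation; it kept the call only without HF mouse 2 or 3 (0.0848 at most otherwise). Its dimmer probe set rose by 4.38 (2.19 to 6.51; adjusted p = 0.004) without overlap of the groups. That probe set differed by 0.000234, above the gap, kept its call in each fit without 1 mouse and stood at 3.34 with column medians centred and at 2.17 after quantile normalisation. The same smallness of difference holds for Scap, the SREBP escort (3.08, with the call lost in 5 of the 12 fits without 1 mouse), and for Erlin2, which takes part in the removal of endoplasmic reticulum proteins and fell by 3.25. Srebf1, whose product drives fatty acid synthesis, stood at 0.047 (-0.999 to 1.09; adjusted p = 0.983).

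Genes of fatty acid synthesis mostly did not pass the test. Of 15 measured, 1 rose and 0 fell, although 9 had an unadjusted p below 0.05. The list's median of 0.82 turned to -0.21 with column medians centred and to -0.24 after quantile normalisation (over the 13 genes with a finite value). The gene that rose was Acss2, which makes acetyl-CoA from acetate and is a known SREBP target (2.62, 1.05 to 4.13; adjusted p = 0.0459). Its value after quantile normalisation was -2.56, and its call held only without HF mouse 8 or LF mouse 2, with an adjusted p of up to 0.098 otherwise. Fasn, the fatty acid synthase, stood at 1.57 (0.29 to 2.78; adjusted p = 0.19) and at -0.24 after quantile normalisation. Acacb, which makes the malonyl-CoA that restrains oxidation, stood at -2.53 with an adjusted p of 0.0512. Among 16 desaturases and elongases, Elovl5 fell by 2.86 (adjusted p = 0.0335), while Scd1, the main liver desaturase, stood at -1.38 (-2.56 to -0.15; adjusted p = 0.251). Elovl5 kept its call only without HF mouse 1 or 3 or LF mouse 2 or 4 (0.0794 at most otherwise).

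Storage, transport and hydrolysis of fat leaned the other way. Of 19 genes of lipid droplets and lipases, 2 fell, 0 rose and 17 did not pass (10.5% called); 14 had the lower mean in HF, with a median of -0.86. Cidec, which fuses lipid droplets in fat cells and fatty livers, lay at -1.14, -0.18 and 1.95 in LF and at -5.32, -4.52 and -2.75 in HF, and it fell by 3.97 (interval -5.95 to -1.94; adjusted p = 0.00682). Cidec also stands in the list of fat cell markers, of which it was the 1 of 8 to pass; the summed level of that list ran from -0.695 to 1.47 in LF and from -0.86 to 0.32 in HF, and its part in the result was not tested. Lipa, the lysosomal acid lipase that splits cholesterol esters and triglycerides, fell by 4.11 (interval -6.14 to -2.03; adjusted p = 0.00541). Plin2, which coats droplets, stood at 0.20 (-0.86 to 1.24; adjusted p = 0.916).

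No gene of triglyceride synthesis and VLDL assembly passed limma's test, 0 of 17, with 9 at an unadjusted p below 0.05. The final enzymes stood on opposite sides, Dgat2 at 2.44 (adjusted p = 0.057) and Dgat1 at -2.04 (adjusted p = 0.1), and neither passed. Of 20 apolipoproteins and lipoprotein-handling genes, 2 fell and 0 rose. Apoc2, the activator of lipoprotein lipase, fell by 4.02 (interval -6.02 to -1.97; adjusted p = 0.00652), with LF mice between -1.36 and 1.84 and HF mice between -5.34 and -3.23. Apoa4, a protein of triglyceride-rich particles, fell by 3.23 (adjusted p = 0.0188); 5 of its HF mice were low, and HF mouse 5, at -0.99, lay just below the lowest LF mouse at -0.70. The call for Apoa4 was lost when HF mouse 2 or LF mouse 5 was left out (adjusted p up to 0.0541).

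Fatty acid binding and activation gave a pair of opposite changes among 19 genes. Acsl3, an acyl-CoA synthetase of the endoplasmic reticulum and of nascent lipid droplets, lay at -1.5, 0.15 and 0.70 in LF and at 4.73, 6.53 and 8.17 in HF, a rise of 5.96 (3.17 to 8.71; adjusted p = 0.000556); both other probe sets were higher and 1 of them passed. Fabp2, a fatty acid binding protein best known from the intestine, fell by 4.44 (interval -6.60 to -2.23; adjusted p = 0.00368). Cd36, a fatty acid transporter, stood at -1.10 (adjusted p = 0.376). In the list of thioesterases and CYP4 enzymes, Acot1, which releases free fatty acids from CoA, fell by 3.42 and Cyp4f14, an omega-hydroxylase, rose by 3.42 (adjusted p = 0.0143 for each); the value of Cyp4f14 was -0.20 after quantile normalisation.

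Oxidation genes did not move together. Ehhadh, the bifunctional enzyme of peroxisomal oxidation, was the 1 of 20 peroxisomal genes that fell (-3.08, interval -4.74 to -1.36; adjusted p = 0.0231). It lost the call in 6 of the 12 fits without 1 mouse, those without HF mouse 2 or 4 or LF mouse 1, 3, 5 or 8 (up to 0.066). None of the 23 genes of mitochondrial beta-oxidation passed limma's test (0 of 23, with 4 at an unadjusted p below 0.05, near the share of all genes), and Cpt1a, the gate of that pathway, stood at -0.43 (-1.48 to 0.64; adjusted p = 0.784). Ppara, the receptor that switches on these genes in fasting, stood at 0.38 (adjusted p = 0.816).

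Phospholipid genes held some of the clearest falls: 3 of 24 fell, 0 rose and 21 did not pass (12.5% called; median -0.36). Tmem86a, a lysoplasmalogenase, lay at -1.27, -0.01 and 1.37 in LF and at -7.21, -5.59 and -4.18 in HF, and it fell by 5.11 (interval -7.53 to -2.65; adjusted p = 0.00163). Pnpla7, a lysophospholipase, fell by 4.14 (interval -6.19 to -2.05; adjusted p = 0.0053), with LF mice between -0.91 and 2.39 and HF mice between -5.27 and -3.46. Chka, the choline kinase at the start of phosphatidylcholine synthesis, fell by 2.66 (adjusted p = 0.0433) and kept the call only without HF mouse 5 or LF mouse 4 (0.0981 at most otherwise). In these 3 genes every HF mouse lay below every LF mouse.

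Genes of glucose production were lower on average but mostly did not pass: 1 of 23 fell and 16 had the lower mean in HF, with a median of -0.47. G6pc, the phosphatase that lets glucose leave the liver, lay at -1.41, -0.10 and 1.39 in LF and at -4.34, -3.63 and -1.89 in HF, and it fell by 3.10 (interval -4.77 to -1.38; adjusted p = 0.0221). It lost the call without HF mouse 2, 3 or 4 or LF mouse 3 or 5 (up to 0.0615). Pck1, the other classical enzyme of the pathway, stood at -1.28 (-2.44 to -0.075; adjusted p = 0.291), and of its other probe sets a dim one rose by 2.84. Pdk4, the kinase that closes pyruvate oxidation in fasting, stood at -2.38 and Fgf21, a fasting hormone of the liver, at -2.18, with adjusted p-values of 0.0607 and 0.0796. Lepr, the leptin receptor, had the largest fall in deposited value of the 137 genes (a difference of means of -0.0732). Its mice lay at -1.68, -0.15 and 2.36 in LF and at -3.92, -3.44 and -2.78 in HF, and it fell by 3.16 (interval -4.84 to -1.41; adjusted p = 0.0206). All 3 other probe sets of Lepr were lower, 1 of them past the test, and the call was lost when HF mouse 2 or LF mouse 3 or 5 was left out (up to 0.0583).

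Of 23 secreted hormones and their carriers, Igf1 rose and 0 fell. Igf1, the growth factor by which the liver answers growth hormone, lay at -1.42, 0.34 and 1.22 in LF and at 3.47, 3.70 and 5.36 in HF, a rise of 3.82 (1.84 to 5.75; adjusted p = 0.00873). Its 3 other probe sets were all higher in HF and none passed the test, at 2.06, 0.97 and 0.75. Igfals, which carries IGF1 in blood, stood at 2.16 (adjusted p = 0.0808). Enho, which encodes the peptide adropin, was named after its values were seen: its brightest probe set stood at -0.84, while 2 others rose without overlap of the groups, by 6.11 (3.26 to 8.93; adjusted p = 0.0005) and 5.46.

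Of 11 genes of CYP3A enzymes and their regulators, 2 fell, 0 rose and 9 did not pass (18.2% called). Cyp3a11, the main CYP3A of male mouse liver, lay at -0.77, -0.03 and 0.74 in LF and at -11.5, -10.1 and -8.13 in HF. It fell by 9.24 (interval -13.3 to -5.11; adjusted p = 1.94e-05), the lowest standardized difference of all genes. After quantile normalisation Cyp3a11 had no difference left (adjusted p = 1). Cyp3a44 fell by 4.67 (adjusted p = 0.00301) and turned to 0.19 after quantile normalisation. Its only probe set was dim, with a mean value of 6.12 in both groups, below the column medians of 6.90. The difference of means was -6.69e-05, so this fall may lie in background signal. Members of this cluster are near copies, so that a probe set can also take up signal of a neighbour. The receptors that drive these genes, Nr1i2 (PXR, 0.73) and Nr1i3 (CAR, 1.32), did not pass. None of the 29 genes of CYP1, CYP2 and related families passed limma's test (0 of 29, with 7 at an unadjusted p below 0.05). Ces2a, a carboxylesterase, fell by 3.45 (adjusted p = 0.0135), and of 35 glutathione and antioxidant genes, Gss, which completes glutathione, and Sod2, the mitochondrial superoxide dismutase, rose by 3.61 and 3.95 with differences of means below the gap between column medians.

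**Figure D3:**
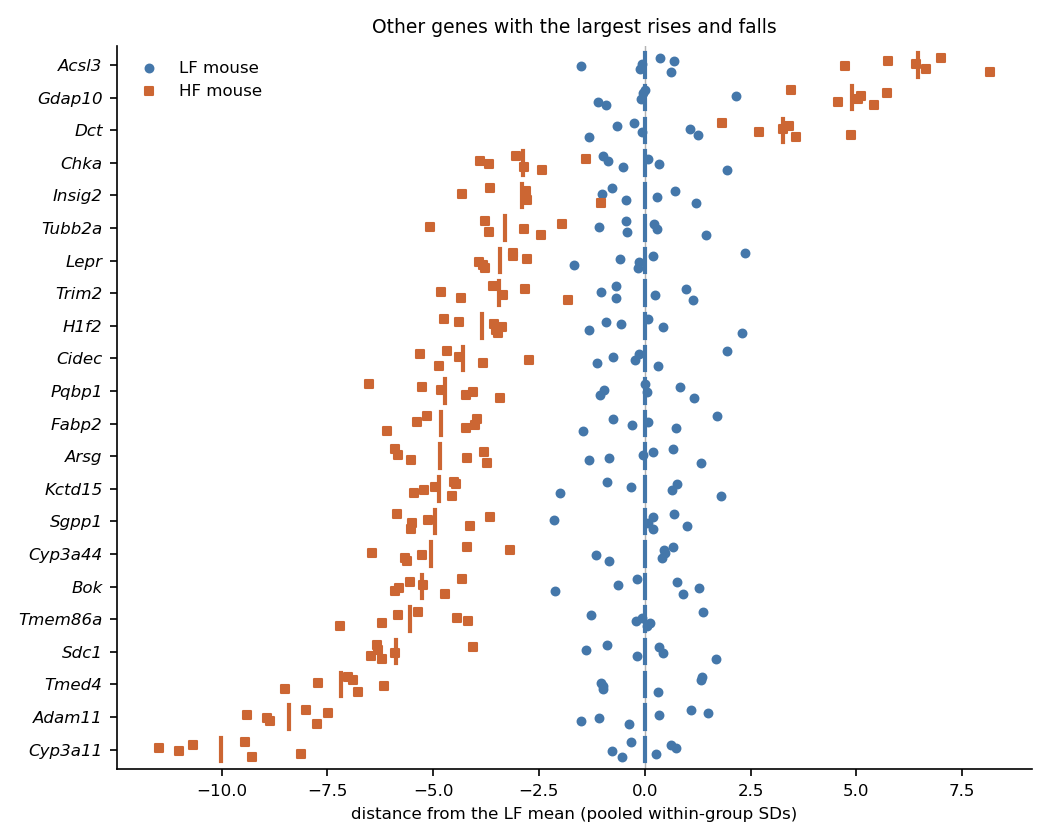
Positions of the 6 LF mice (blue circles) and 6 HF mice (orange squares), in pooled within-group SDs from the LF mean, for the genes with the largest rises and falls other than the sterol genes that rose; vertical ticks are group means. The groups do not overlap in these genes, with Acsl3 highest at 5.96 and Cyp3a11 lowest at -9.24 as standardized differences.

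Of the 137 genes, 90 stood in none of the pathway and cell type lists, 29 higher and 61 lower in HF. Adam11, a member of the ADAM family without protease activity, lay at -1.5, -0.01 and 1.5 in LF and at -9.40, -8.44 and -7.48 in HF, and it fell by 7.76 (interval -11.2 to -4.24; adjusted p = 5.97e-05). Tmed4, a cargo receptor of the early secretory pathway, fell by 6.63 (interval -9.65 to -3.57; adjusted p = 0.000243), with LF mice between -1.02 and 1.35 and HF mice between -8.50 and -6.17, and turned to 0.84 after quantile normalisation. Sdc1, the heparan sulfate proteoglycan by which hepatocytes take up triglyceride-rich particles, lay at -1.38, 0.08 and 1.68 in LF and at -6.46, -6.26 and -4.06 in HF. It fell by 5.43 (interval -7.97 to -2.84; adjusted p = 0.0011), and its 3 other probe sets fell as well, at -2.74, -3.19 and -3.03.

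Further falls came from genes of different roles. Bok, a BCL2 family protein of the endoplasmic reticulum, fell by 4.85 and Sgpp1, the phosphatase that ends sphingosine-1-phosphate signals, by 4.58. Kctd15 fell by 4.48, Arsg, a lysosomal sulfatase, by 4.46 and Pqbp1, a splicing-associated protein, by 4.35, each with an adjusted p between 0.00246 and 0.00408 and no overlap of the groups. Bok and Sgpp1 had differences of means of -4.75e-05 and -4.11e-05, just beyond the gap between column medians. H1f2, a linker histone, fell by 3.55. Trim2, a ubiquitin ligase, fell by 3.19, and Tubb2a, a beta-tubulin, by 3.05; both lost the call when HF mouse 2 or LF mouse 3 or 5 was left out (Trim2 up to 0.0539, Tubb2a up to 0.0665). Serpinb6b, a clade B serpin, fell by 3.05 and lost the call without HF mouse 1, 2 or 4 or LF mouse 1, 5 or 8 (up to 0.0653).

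Rises outside the sterol genes were fewer. Gdap10 rose by 4.51 (2.28 to 6.70; adjusted p = 0.00353), with LF mouse 4 at 2.17 and the other 5 LF mice at -0.0023 or below, and with the lowest HF mouse at 3.46. Pigr, which carries antibodies into bile, rose by 3.69 (1.76 to 5.57; adjusted p = 0.0101), and its other probe set rose as well. Nampt, the rate-limiting enzyme of NAD salvage, rose by 2.93 (adjusted p = 0.0294) and its other 2 probe sets by 3.53 and 2.90. Dct, an enzyme of pigment synthesis, rose by 3.02 (adjusted p = 0.0252), and Gulo, the last enzyme of vitamin C synthesis, by 2.97 (adjusted p = 0.0273). Nampt lost its call without HF mouse 2, 3, 4 or 8 or LF mouse 1, 5 or 8 (up to 0.0752), Gulo without HF mouse 1, 2, 3 or 4 or LF mouse 3, 5 or 8 (0.0715), and Dct without HF mouse 1 or 4 or LF mouse 3, 5 or 8 (0.0692).

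Near the threshold, 3 more named genes depended on most of the mice. Adh4, an alcohol dehydrogenase, rose by 2.61 (adjusted p = 0.0462) and kept its call only without LF mouse 2 (0.107 at most otherwise). Ldha, the lactate dehydrogenase, fell by 2.58 (adjusted p = 0.0478) and kept its call only without HF mouse 3 (0.108). Slc16a1, a carrier of lactate and ketone bodies, fell by 2.56 (adjusted p = 0.0499) and kept its call only without LF mouse 4 (0.111); its other probe set stood at 0.29.

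Immune and inflammatory lists had higher means in HF without any member passing the test. Of 33 interferon-response genes, 32 had the higher mean in HF and 0 passed limma's test (14 at an unadjusted p below 0.05, against 15.1% of all genes), with a median of 1.10 that was 1.05 with column medians centred and 0.96 after quantile normalisation. Their summed level ran from -0.97 to 0.275 in LF and from -0.36 to 2.88 in HF, and HF mouse 3 was the highest. HF mouse 3 was also the highest for the 10 MHC class II genes (2.61), the 20 markers of Kupffer cells and macrophages (1.84) and the 17 markers of lymphocytes and NK cells (1.74). Of the lymphocyte markers, 17 of 17 had the higher mean in HF and 0 passed limma's test (2 at an unadjusted p below 0.05). Their median of 0.72 turned to -1.83 with column medians centred, which is no test of direction, and to -0.73 after quantile normalisation. The summed levels of the groups overlapped in all of these lists. The part of these cells in the other results was not tested.

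The other lists gave few or no called members. Of the 51 lists, 24 had 0 members past limma's test at the adjusted threshold. Among them, the 34 genes of amino acid catabolism and the urea cycle had a median of -0.75 and 16 members at an unadjusted p below 0.05, and the 22 cytosolic ribosomal protein genes had a median of -1.05 and 4 such members, near the 15.1% of all genes. The 26 genes of endoplasmic reticulum chaperones had a median of 0.88 and 5 such members, and the 23 bile acid genes a median of 0.30 and 6, with Cyp7a1, the rate-limiting enzyme of bile acid synthesis, at -0.41 (-1.46 to 0.66; adjusted p = 0.798). Of the 29 lists with a positive median, 23 turned negative when column medians were centred. Cholesterol synthesis, interferon response, MHC class II and endoplasmic reticulum chaperones were among those that did not. That centring moves HF against LF by 3.36e-05, beside a median pooled SD of 4.20e-06. A turn of sign under it is therefore no test of a list's direction.

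**Figure D4:**
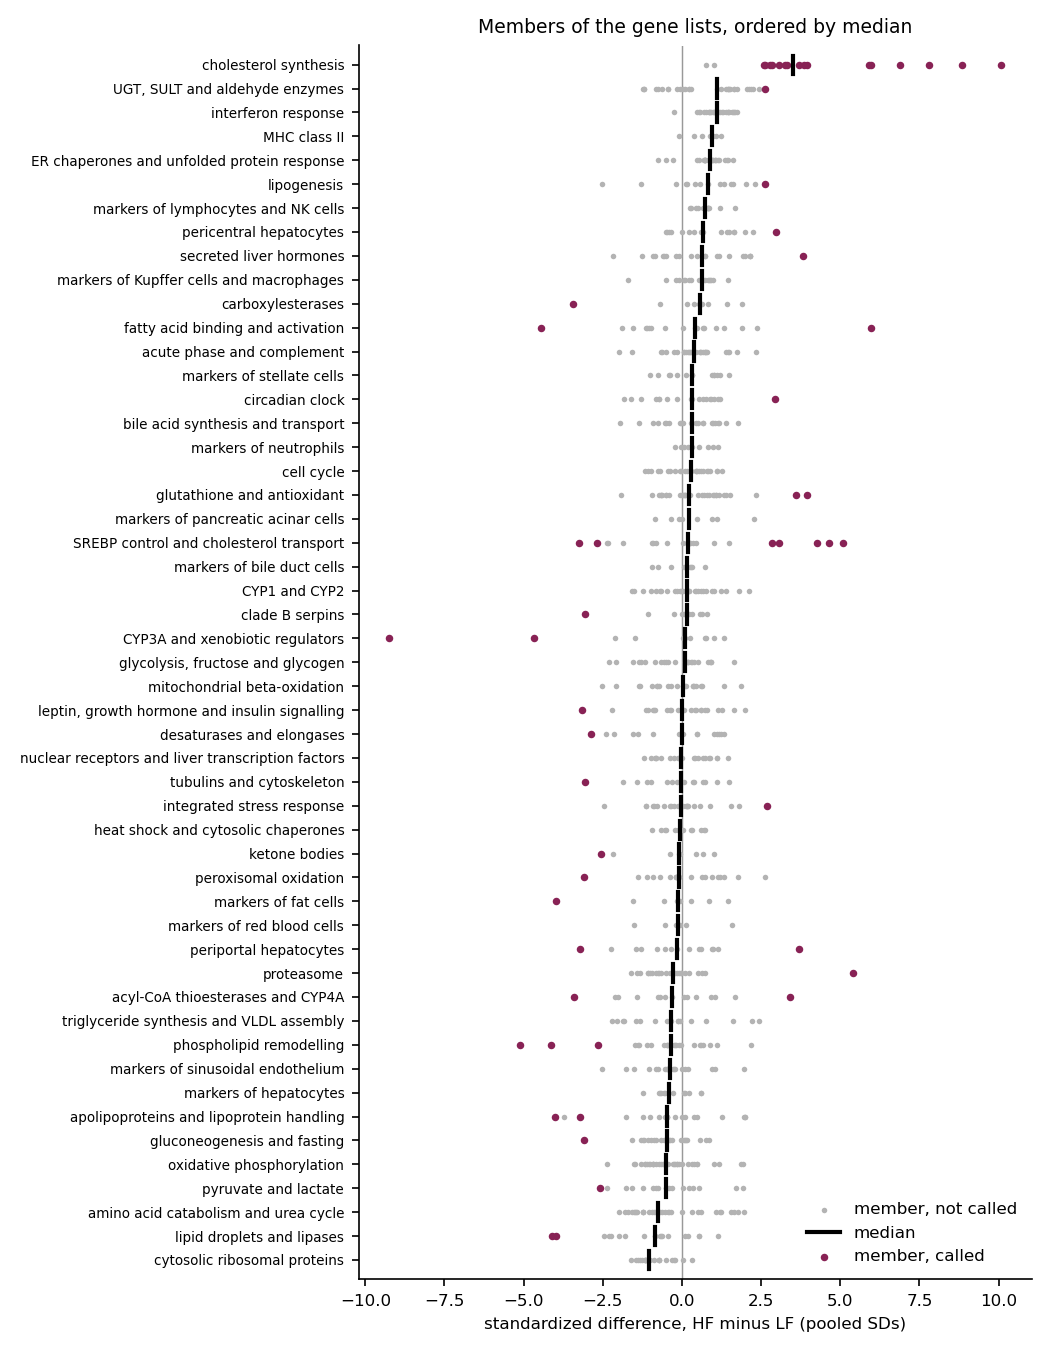
Each point is a gene, placed by its standardized difference (HF minus LF, in pooled within-group SDs) in the row of its list; dark points passed limma's test, grey points did not, and black ticks are list medians, which order the rows. Cholesterol synthesis stands alone at the top with a median of 3.50, and the lowest list, cytosolic ribosomal proteins, has a median of -1.05 and no dark point.

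Probe sets of the same gene offered a check within these arrays, although they share the RNA of the same mice. For 116 of the called genes there were 209 other probe sets, of which 185 (88.5%) had the same sign as the brightest one and 49 (23.4%) passed the test, all 49 in the same direction. Other probe sets of uncalled genes had the same sign in 62.3% and passed in 0.399%. Another 61 genes, Lss and Enho among them, passed on a dimmer probe set alone. In several named genes the other probe sets kept the sign but none passed. Rises of this kind included Msmo1 (2.09), Sc5d (0.86 and 2.36) and Acss2 (2.06 and 0.35). Falls included Adam11 (-2.26), Tmed4 (-2.12), Sgpp1 (-2.48 and -2.01), Chka (-1.40 and -1.26), Tubb2a (-1.30) and Trim2 (-2.19 to -0.94). Several of the leading probe sets, such as those of Erg28, Acsl3, Sgpp1 and Lipa, are of the kind whose probes match more than 1 transcript.

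**Figure D5:**
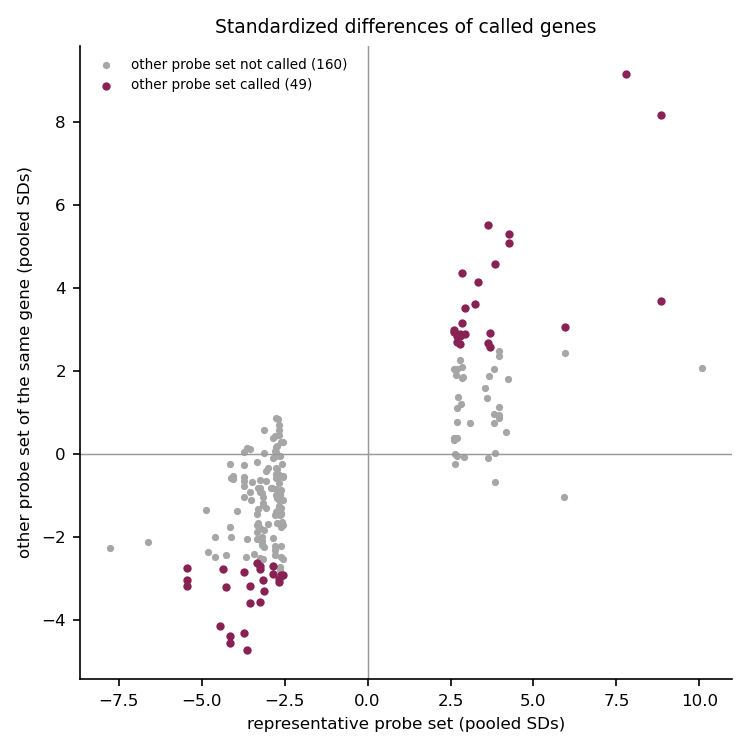
Each point is 1 of the 209 other probe sets of called genes, with the standardized difference of the gene's representative probe set on the horizontal axis and its own on the vertical axis, both in pooled within-group SDs. The 49 other probe sets that passed the test, in dark purple, lie in the lower left and upper right quadrants, and 185 of the 209 have the same sign on both axes.

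Of the 137 genes, 67 kept the call in all 12 fits without 1 mouse, 29 higher and 38 lower in HF. Leaving out LF mouse 5 cost the most calls, 65 of 137, and leaving out LF mouse 2 the fewest, 22. The 6 HF arrays were also deposited in a second value set, computed together with other arrays. In that set the SD among the same 6 HF mice was a median of 0.287 times that in the first set over the 137 genes, against 0.993 times over all genes, so the spread by which sizes are scaled here was not set by the arrays alone. The highest HF mouse was the same in both value sets for 113 of the 137 genes (82.5%), against 76.5% of all genes.

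Quantile normalisation ended many of these calls. Of the 137 genes, 65 passed in the same direction after it, 3 in the opposite direction and 69 not at all. To within 1e-09, 16 had no difference left, and 15 of the 137 held the same rank in every mouse. Over all genes, the rank of the brightest probe set spanned a median of only 3 places between mice. Far more probe sets passed as lower than as higher after this step. A lost call or a turned sign under it therefore does not settle the direction of a gene. Of the 62 named genes that passed on the deposited values, 26 did not pass after it. For 9 of them, Cyp3a11, Sdc1, Lipa, Igf1, Ces2a, Elovl5, Ldha, Sc5d and Gulo, no difference was left (adjusted p = 1). Among the others, Tmem97 stood at 1.68, Tm7sf2 at 0.53, Hsd17b7 at 0.82, Dhcr7 at 1.67, Pigr at 0.60 and Nampt at 0.90. Fabp2 stood at -1.19, Ehhadh at -1.19, Acot1 at -1.69 and Apoa4 at -0.75. Of the 18 cholesterol synthesis genes, 9 passed after quantile normalisation, 1 of them, Lbr, with the opposite sign.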

How the data were processed

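Total RNA of 1 liver piece per mouse was labelled and hybridised to 1 Affymetrix array each, per the labels' protocols. Values deposited by the authors were handled as log2 values because of their range. R 2.7.2 is named in the submitters' processing notes, while the log base and the methods of summarisation and normalisation were not given in the sources used here. Per the series' design text, the HF arrays were analysed together with LF and a further time with another group; only the values made with LF were tested.

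The platform annotation gave the names: 34958 probe sets had 1 gene symbol, 932 had several and 9211 were not listed, and neither of the last groups was named. The 12 columns were fitted in limma 3.58.1 (R 4.3.3; lmFit and eBayes on group alone, two-sided), p-values were adjusted by Benjamini-Hochberg across the 34958 probe sets, and the threshold was 0.05. Intervals are 95% and come from the noncentral t distribution with 10 degrees of freedom. A list's summed level in a mouse is the mean over members of the value minus the mean over the 12 mice, in pooled SDs. Of 1100 entries in 51 gene lists, 988 were measured.

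Named genes were the 12 highest and 12 lowest standardized differences and the 8 largest rises and falls of value among the 137 genes defined in the text, up to 3 of these per list, all measured genes of cholesterol synthesis, and 22 genes of liver lipid and glucose metabolism whatever their result, of which 19 were measured and 6 passed; this gave 77 genes. Other genes were named after their values were seen. The comparison, the members and the lists were chosen with earlier results of these data known.

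The labels number the mice but state no pairing between groups. Deviations of same-numbered mice correlated between -0.140 and 0.111, over 0.1 in 2 of 6. Even so, 4 of 6 LF mice correlated best with the HF mouse of their own number. The fit has no block because no pairing is stated, and a block is given below as an alternative. On simulated data with 200 of the 34958 probe sets changed, 10% of effects of 2 SDs and 78% of effects of 4 SDs were recovered, with 2 false calls. Effects of 2 SDs were thus mostly missed there. The simulated noise was normal and drawn separately for each probe set, so the 2 false calls do not measure the rate in these arrays. The number of arrays limits the precision.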

Additional observations from a re-analysis of the deposited data

Results flagged for a closer look

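Single mice stood apart from the other 5 of their group, by Dixon's test at the 95% level, in 24 cases among the named genes and the summed levels of lists. Chance does this in about 1 in 20 groups. With 77 named genes and 51 lists, each in 2 groups, some such values are to be expected by chance. Whether the 24 exceed that number was not tested, since genes and lists share the same mice. Positions are in pooled SDs from the LF mean. Among genes these were Acsl3 in LF mouse 3 (-1.50, lowest), Gdap10 in LF mouse 4 (2.17, highest), Sdc1 in HF mouse 5 (-4.06, highest), Sgpp1 in LF mouse 4 (-2.16, lowest), Elovl5 in LF mouse 8 (1.58, highest), Apoa4 in HF mouse 5 (-0.99, highest), Acot1 in HF mouse 8 (-2.25, highest), Ldha in LF mouse 8 (1.81, highest), Fasn in HF mouse 4 (-0.036, lowest) and Ppara in LF mouse 1 (-1.08, lowest).

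Among summed levels of gene lists, HF mouse 3 was apart from and above the other HF mice for interferon response (2.88), MHC class II (2.61), markers of lymphocytes and NK cells (1.74) and acute phase and complement (1.05). LF mouse 8 was apart as the highest LF mouse for lipid droplets and lipases (1.37), peroxisomal oxidation (0.795) and interferon response (0.275), and LF mouse 2 for carboxylesterases (0.849), glutathione and antioxidant genes (0.483) and markers of stellate cells (0.996). HF mouse 5 was apart as the highest for apolipoproteins (0.514) and as the lowest for peroxisomal oxidation (-0.456), HF mouse 8 as the highest for CYP3A enzymes and their regulators (0.035), and LF mouse 1 as the lowest for SREBP control and cholesterol transport (-0.836).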

How the results depend on the processing

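The count of 325 probe sets past the threshold stayed within 1.5 times under 1 probe set per gene (308), all probe sets (303), limma with trend and robust (324), array weights (396), only differences over the gap between column medians (224), and centring on the median deviation, an alternative added after the data were seen (326, of which 320 were shared). It moved to 601 with the dimmer probe sets left out (193 higher, 408 lower), to 5570 after quantile normalisation (156 higher, 5414 lower, 134 shared) and to 30910 with column medians centred (371 higher, 30539 lower, 306 shared). That last count follows from the centring itself: only 3 different probe sets lie at the middle of the 12 columns, neighbouring values there are a median of 3.96e-05 apart, and the median difference over all probe sets is -3.33e-09; for quantile normalisation and the filter the cause was not tested. Leaving out 1 mouse gave 150 (without LF mouse 5) to 370 (without HF mouse 5), and the count also moved by over 1.5 times without HF mouse 2 (164), LF mouse 3 (165), HF mouse 4 (179), LF mouse 1 (206) or LF mouse 8 (214). With the mouse number as a replicate block, which the labels do not state as a pairing, 287 probe sets passed, 150 of them shared. Of the 6 LF mice, 4 correlated best with the HF mouse of their own number. Whether the numbers mark a pairing was not tested. Of the 77 named genes, 20 lost and 2 gained the call under the block. After quantile normalisation the sign turned for Tmed4 (0.84), Cyp3a44 (0.19), Acss2 (-2.56), Cyp4f14 (-0.20), Mvk (-1.28), Lss (-0.63), Lbr (-2.29), Srebf1 (-0.46), Srebf2 (-2.82), Fasn (-0.24) and Pparg (-0.094), with column medians centred for Lss (-1.97), Ebp (-2.02), Srebf1 (-0.020), Srebf2 (-1.33) and Plin2 (-0.16), and on another probe set for Fdps (-1.03), Fdft1 (-0.67), Slc16a1 (0.29) and Pck1 (2.84). Leaving out 1 mouse turned Srebf1 in 5 fits (range over all 12 fits -0.194 to 0.367) and Plin2 in 3 (-0.0156 to 0.478), both close to 0 with all mice. Of the 137 genes, 104 kept and 17 changed their sign after quantile normalisation, 16 had no difference left and 69 no longer passed.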

Other observations

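Further genes of the 137, named here after their values were seen, have known roles in metabolism. Odc1, the first enzyme of polyamine synthesis, fell by 4.26 (adjusted p = 0.00474). Gpc1, a cell-surface heparan sulfate proteoglycan like Sdc1, fell by 3.99 (adjusted p = 0.00673), and Nudt1, which removes oxidised nucleotides, fell by 3.96 (adjusted p = 0.00682). Pank3, a pantothenate kinase at the start of coenzyme A synthesis, rose by 4.22 (adjusted p = 0.00497), and Tlcd2, a membrane protein of the TLC domain family, rose by 4.12 (adjusted p = 0.00538). Aox3, an aldehyde oxidase, rose by 3.39, and F11, the clotting factor XI gene, by 3.24. Odc1, Gpc1, Nudt1, Pank3, Tlcd2 and Aox3 kept their call in all 12 fits without 1 mouse; F11 lost it in 3 of them.

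Psma4, a core subunit of the proteasome, rose by 5.40 (adjusted p = 0.00128) and kept its call in all 12 fits without 1 mouse, but its difference of means was 1.53e-05, below the gap between column medians. Of the 27 proteasome genes it was the 1 that passed, and 21 had the lower mean in HF.

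Probe sets that the annotation ties to several gene symbols or to none gave 26 calls of 10143 when all probe sets were fitted, 11 higher and 15 lower.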
